A study of Rattus norvegicus with 24 samples.

Results

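The 10 genes described here belong to the interferon response: Dhx58, Ifih1, Irf7, Irf9, Isg15, Mx1, Mx2, Oas1a, Stat2 and Ifit2. They were taken by name, and each was represented by the probe set paired with its symbol alone. Where several probe sets qualify the one with the highest mean log2 intensity is kept, but each of the 10 had exactly 1. They are 10 of the 17245 genes measured. RNA came from whole livers of 24 male Wistar rats, 1 whole-transcript array per rat, in 4 groups of 6: 20% protein for 1 week, 5% protein for 1 week, 20% protein for 4 weeks and 5% protein for 4 weeks. The labels name no genotype, no agent beside the diets and no age, and 20% protein is the control diet at each time. The percentages and times are those of the sample titles. Codes in the sample descriptions hold 18 where the titles have 20 and 4 where they have 5, and the design text speaks of 4 weeks alone, so both are in some doubt. The study concerns the malnourished liver, and the question put here is how these genes stood in the low protein groups at each time, with Ifit2 set against the other 9.

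Interferons are secreted signals that cells release when sensors find viral or misplaced nucleic acid. Type I interferon binds the receptor pair Ifnar1 and Ifnar2, whose kinases Jak1 and Tyk2 activate Stat2. Stat2 and Irf9 are parts of ISGF3, a transcription factor that binds the interferon-stimulated response element in front of its target genes. In the liver, hepatocytes answer interferon, and Kupffer cells, the resident macrophages, are among the cells that make and answer it. Several of the 10 genes are parts of this circuit as well as its targets, among them Stat2, Irf9, Irf7 and the RNA sensors.

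Promoter sequences are shown for 4 of the genes because the response element is the feature by which such targets are recognised. RefSeq promoter windows of build GRCr8, 250 bases before to 50 after the gene's start, were matched for 6 of the 10: Ifih1, Irf7, Irf9, Mx1, Oas1a and Stat2. The core GAAANNGAAA was searched on both strands. It was found in 3 of these 6 windows and in 3.92% of all 33469 windows. Below, the 100 bases before each start are given 5′ to 3′ on the gene's strand, with the matches in capitals. Ifih1 (chr3:67683969-67684068, minus strand) has its match at -59, Irf7 (chr1:205800024-205800123, minus strand) has it on the opposite strand at -69, and Oas1a (chr12:41330366-41330465, plus strand) has overlapping matches at -41 and -35. Stat2 (chr7:1286990-1287089, plus strand), the gene with the smallest adjusted p among the 10 at 4 weeks, is shown as one whose window had no match.
Ifih1: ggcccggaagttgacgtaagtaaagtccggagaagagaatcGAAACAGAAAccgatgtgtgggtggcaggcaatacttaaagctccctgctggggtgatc
Irf7: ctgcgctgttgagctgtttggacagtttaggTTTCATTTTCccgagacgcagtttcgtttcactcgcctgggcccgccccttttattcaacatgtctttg
Oas1a: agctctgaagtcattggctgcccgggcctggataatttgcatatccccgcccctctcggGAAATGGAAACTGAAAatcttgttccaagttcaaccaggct
Stat2: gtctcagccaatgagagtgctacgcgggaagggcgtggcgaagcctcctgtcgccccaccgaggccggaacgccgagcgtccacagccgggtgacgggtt
The windows of Irf9 and Mx1 also lacked these letters. Among the other genes of the pathway, the core was found in 23 of 36 windows of antiviral effectors, in 13 of 20 of interferon gamma targets and antigen presentation genes, and in 1 of 9 of sensors and adaptors. It was found in 2 of 6 windows of interferons and in 1 of 7 of negative regulators. For Isg15 conjugation it was in 0 of 3, for other interferon regulatory factors in 0 of 4 and for receptors and signalling in 0 of 6.

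After 4 weeks, 6 of the 9 genes other than Ifit2 fell on 5% protein and Ifit2 rose. Stat2 fell 2.11-fold, Dhx58 2.05-fold, Oas1a 2.35-fold, Irf7 1.94-fold, Isg15 1.90-fold and Ifih1 1.30-fold, while Ifit2 was 1.93-fold higher. Irf9, Mx1 and Mx2 did not pass the threshold, with log2 differences of -0.45, -0.75 and -1.10. With the run of animal numbers, 1 of 4 blocks of numbers in the titles, as a covariate 4 of the 9 were lower, as Irf7 and Isg15 lost their calls. Calls rest on limma with Benjamini-Hochberg adjustment over all 17245 genes, at an adjusted p below 0.05. By that rule 12.4% of all genes were called lower and 13.4% higher on 5% protein at 4 weeks. The median log2 difference of the 9 genes was -0.96, against -0.012 over all genes. After 1 week none of the 10 was called, where 4.30% of all genes were called in either direction. Log2 values below are of the deposited intensity, differences are 5% minus 20% protein, and errors are standard errors of the fit unless marked SD, with n = 6 animals per group.

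**Figure D1:**
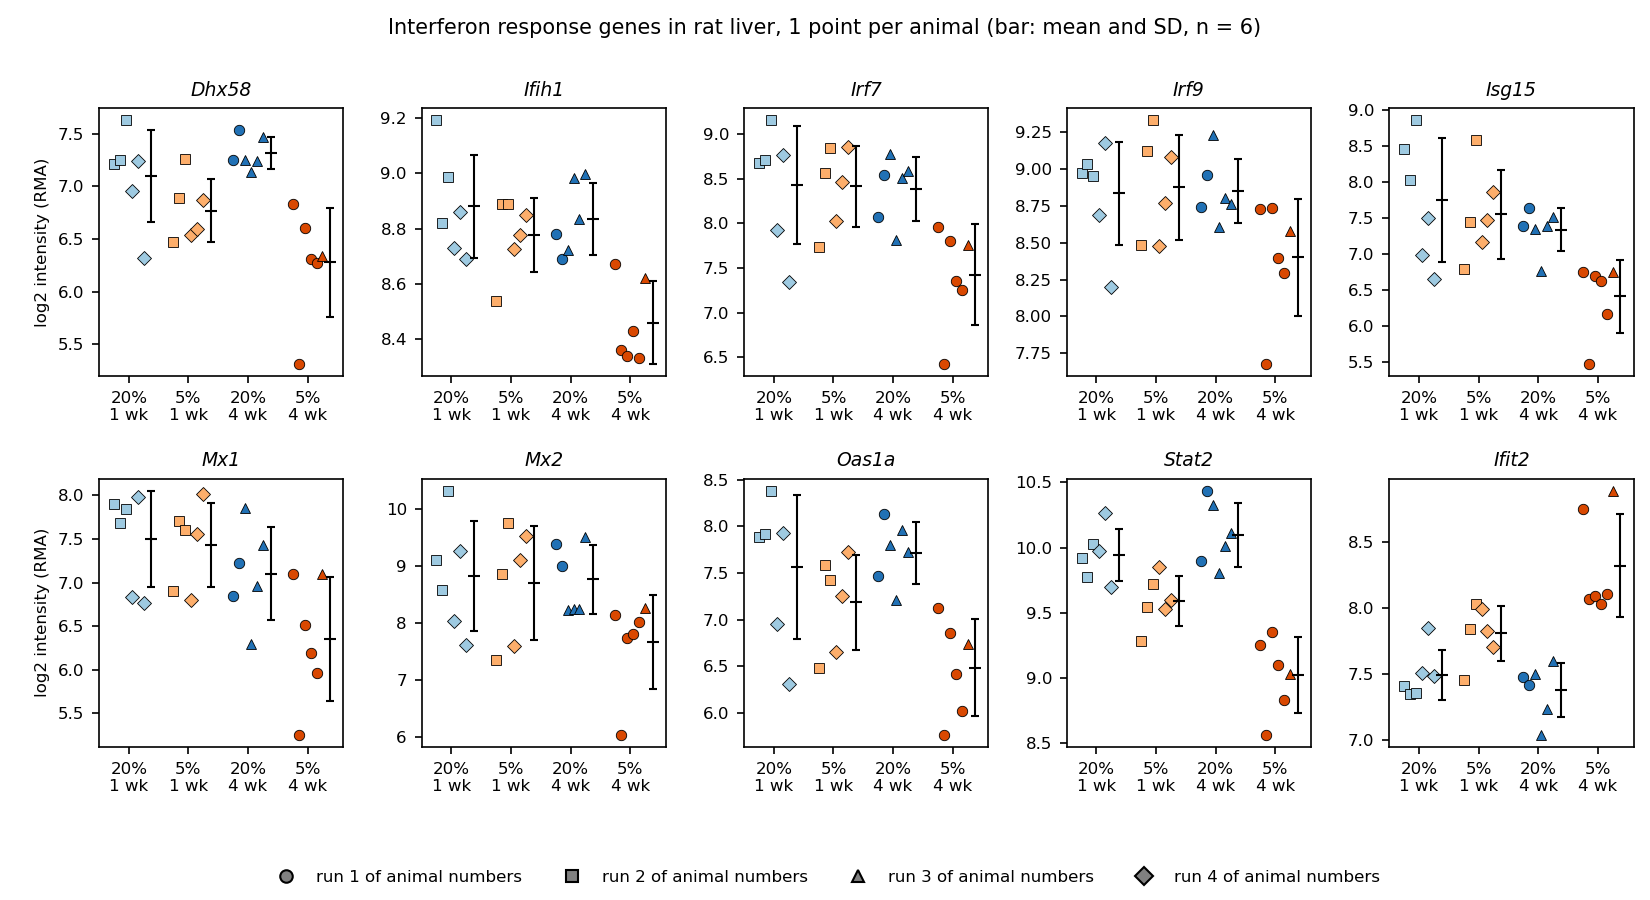
Log2 intensity (vertical axis) of each of the 10 genes in every animal, by diet and time (horizontal axis), with the group mean and SD (n = 6) as a bar and the run of animal numbers as the marker shape. At 4 weeks the 5% animals lie lower than the 20% animals with no overlap for Dhx58, Ifih1, Isg15, Oas1a and Stat2, and higher with no overlap for Ifit2.

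Among the sensors, Ifih1 encodes MDA5, which detects long double-stranded RNA in the cytoplasm. At 4 weeks its log2 intensity ran from 8.33 to 8.67 on 5% protein (median 8.39) and from 8.69 to 8.997 on 20% protein (median 8.81). These ranges did not overlap, although the gap between the nearest animals was small. The difference was -0.38 ± 0.09 (limma adjusted p = 0.00266). At 1 week the 5% animals ran from 8.54 to 8.89 and the 20% animals from 8.69 to 9.19, and the difference of -0.10 ± 0.09 was not called (limma adjusted p = 0.630).

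Dhx58 encodes LGP2, a relative of MDA5 without its signalling domain that modulates RNA sensing. At 4 weeks it ran from 5.31 to 6.83 on 5% protein (median 6.32) and from 7.14 to 7.53 on 20% protein (median 7.25). Every 5% animal lay below every 20% animal, and the lowest value, that of animal 23, stood well below the rest of its group. The difference was -1.03 ± 0.20 (limma adjusted p = 0.000449). The ranges at 1 week were 6.47 to 7.26 on 5% and 6.32 to 7.63 on 20% protein, and the difference of -0.33 ± 0.20 was not called.

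Among the transcription factors, Stat2 had the largest separation relative to its error. At 4 weeks it ran from 8.56 to 9.36 on 5% protein (median 9.06) and from 9.80 to 10.44 on 20% protein (median 10.06). The groups were far apart, and the difference of -1.08 ± 0.13 had a limma adjusted p of 1.29e-06. At 1 week the ranges overlapped, 9.29 to 9.85 against 9.70 to 10.26, with a difference of -0.35 ± 0.13. That difference had an unadjusted p of 0.0119 and was not called (limma adjusted p = 0.130).

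Irf9 completes ISGF3 by giving it its DNA contact. At 4 weeks it ran from 7.68 to 8.74 on 5% protein (median 8.49) and from 8.61 to 9.23 on 20% protein (median 8.78), so the groups overlapped. The difference of -0.45 ± 0.18 was not called (limma adjusted p = 0.0747), and at 1 week it was 0.04 ± 0.18. Irf7 drives the later, amplifying wave of type I interferon genes. It ran from 6.42 to 7.96 on 5% protein (median 7.56) and from 7.82 to 8.78 on 20% protein (median 8.52) at 4 weeks. A single 20% animal, 67, lay inside the range of the 5% animals, and the difference was -0.96 ± 0.28 (limma adjusted p = 0.0120). With run as a covariate it was -0.85 and was not called (limma adjusted p = 0.0635). For Irf7 the difference at 1 week was -0.01 ± 0.28, with wide ranges of 7.73 to 8.85 and 7.34 to 9.16.

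The effectors varied more between animals. Isg15 is a ubiquitin-like protein that is attached to other proteins during the response. At 4 weeks it ran from 5.47 to 6.76 on 5% protein (median 6.66) and from 6.77 to 7.63 on 20% protein (median 7.38). The ranges touched without overlapping, since animal 67 on 20% protein lay just above the highest 5% animal. The difference was -0.93 ± 0.32 (limma adjusted p = 0.0352). This call was lost when animal 23 was left out (limma adjusted p = 0.101) and also without 29, 30, 32, 63, 72 or 73, with adjusted p values from 0.0539 to 0.0691. It was lost with run as a covariate too (limma adjusted p = 0.0556).

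Oas1a makes the short oligoadenylates that switch on RNase L, which degrades RNA. At 4 weeks it ran from 5.76 to 7.12 on 5% protein (median 6.58) and from 7.21 to 8.14 on 20% protein (median 7.76). The groups did not overlap, and the difference of -1.23 ± 0.30 was the largest in size among the 10 (limma adjusted p = 0.00283). Oas1a lies in a cluster of closely similar Oas1 genes in the RefSeq gene order, so its probes may share signal with neighbours and its value is uncertain to that extent. At 1 week the difference was -0.38 ± 0.30 and was not called.

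Mx1 and Mx2 encode dynamin-like GTPases that block viral replication. Mx1 ran from 5.25 to 7.10 on 5% protein (median 6.35) and from 6.30 to 7.86 on 20% protein (median 7.09) at 4 weeks. Its groups overlapped over much of their range, and the difference was -0.75 ± 0.31 (limma adjusted p = 0.0757). For Mx2 the range was 6.03 to 8.26 on 5% protein (median 7.91) and 8.22 to 9.51 on 20% protein (median 8.62). Only the highest 5% animal, 59, reached the 20% range, and the difference of -1.10 ± 0.46 carried the widest error of the 10 genes (limma adjusted p = 0.0809). After 1 week the differences were -0.07 ± 0.31 for Mx1 and -0.12 ± 0.46 for Mx2. Mx1 and Mx2 are similar in sequence and lie near each other, and the probes may not part them fully.

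**Figure D2:**
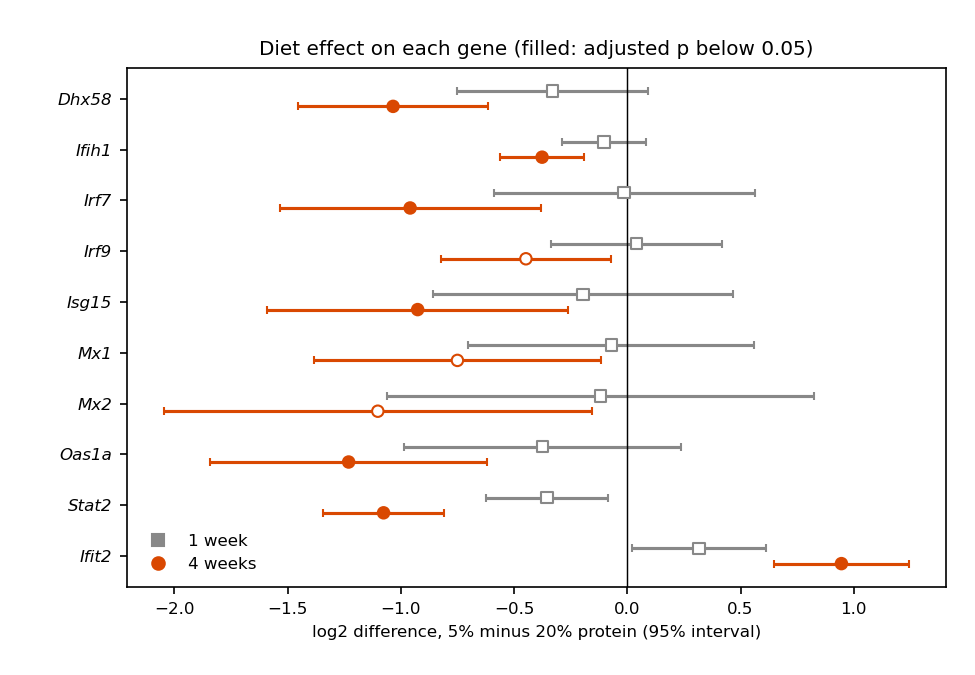
Log2 difference between 5% and 20% protein (horizontal axis, with the 95% interval of the fit) for each gene at 1 week (squares) and 4 weeks (circles); filled symbols passed an adjusted p of 0.05. At 4 weeks the intervals of the 9 genes lie below 0 and that of Ifit2 above 0, from 0.65 to 1.24.

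Ifit2 went the other way. It encodes a tetratricopeptide protein that binds RNA and restrains translation, and is usually counted among the genes that interferon induces most. At 4 weeks it ran from 8.03 to 8.89 on 5% protein (median 8.10) and from 7.04 to 7.60 on 20% protein (median 7.45). Every 5% animal lay above every 20% animal, with 59 and 22 highest, and the difference was 0.95 ± 0.14 (limma adjusted p = 2.46e-05). Its 95% interval began at 0.65, while the highest upper bound among the other 9 genes was -0.07. At 1 week Ifit2 ran from 7.46 to 8.03 on 5% and from 7.35 to 7.85 on 20% protein. That difference of 0.32 ± 0.14 had an unadjusted p of 0.0374 and was not called (limma adjusted p = 0.244).

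Counts of groups that did not overlap can be read against all genes. At 4 weeks 5 of the 9 genes lay wholly lower on 5% protein, where 5.88% of all genes did, and Ifit2 lay wholly higher, where 6.55% did. At 1 week all 10 overlapped, and 2.56% of all genes did not. At 1 week limma gave an unadjusted p below 0.05 to Stat2 and Ifit2 alone among the 10.

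In the RefSeq gene order Ifit2 is followed by Ifit3, Ifit1bl and Ifit1. Of these, Ifit3 and Ifit1 were measured here and neither was called at 4 weeks. Ifit3 differed by -0.02 ± 0.18 and Ifit1 by 0.23 ± 0.56 (limma adjusted p = 0.963 and 0.823). The Ifit1 values spread widely, from 4.32 to 7.09 on 5% and from 3.62 to 6.94 on 20% protein, so its 95% interval, -0.93 to 1.39, holds a difference of the size seen for Ifit2. For Ifit3 the 95% interval was -0.38 to 0.35 and does not hold it.

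The other genes of the pathway, 109 measured of 133 listed, had 47 lower and 6 higher at 4 weeks, with a median difference of -0.28. Of all genes, 12.4% were called lower and 13.4% higher at 4 weeks, the shares to set beside each list count below. At 1 week 6 of the 109 were lower and none higher, with a median of -0.09, and 2.44% of all genes were called lower. The 6 were 2 sensors or adaptors, 3 antiviral effectors and 1 interferon gamma target, counts that ranged over 1 to 3, 1 to 5 and 0 to 1 under the alternatives. They were Mavs, the adaptor of the RNA sensors on mitochondria (-0.38 ± 0.07), Ikbke, a kinase of the interferon factors (-0.63 ± 0.18), Dtx3l (-0.69 ± 0.13), Parp9 (-0.53 ± 0.15), Helz2 (-0.53 ± 0.15) and the chemokine Cxcl11 (-0.55 ± 0.15). Dtx3l and Parp9, neighbours in the genome, encode partners of one ubiquitin ligase complex. Their limma adjusted p values ran from 0.00251 to 0.0434.

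Among the ligands, none of 6 interferon genes was called by limma at either time, and none had an unadjusted p below 0.05 at 1 week, while 1, Ifnk, did at 4 weeks. Of the 6, 5 lay among the 33.3% of genes with the lowest mean intensity. Ifnk differed by -0.21 ± 0.09 at 4 weeks (limma adjusted p = 0.0957), and Ifng, with the smallest p at 1 week, by 0.13 ± 0.08 (adjusted p = 0.492). Of 7 receptor and kinase genes, 3 fell at 4 weeks and 1 rose. Ifngr1, which binds interferon gamma, fell by 0.35 ± 0.10, Il10rb, a chain of the interferon lambda receptor, by 0.36 ± 0.12 and Jak1 by 0.18 ± 0.06, while Ifngr2, the partner of Ifngr1, rose by 0.66 ± 0.16. Ifnar1 differed by -0.21 ± 0.10 and was not called (limma adjusted p = 0.126). Ifnar2, Tyk2, Ddx58 and Eif2ak2 were not analysed here, as the annotation pairs no probe set with them alone.

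Of 12 other sensors and adaptors, 6 fell at 4 weeks and none rose (median -0.32). Ikbke fell by 1.15 ± 0.18, Mavs by 0.44 ± 0.07 and Irf3, the factor that starts interferon transcription, by 0.63 ± 0.12. Among 5 other interferon regulatory factors, Irf2 (-0.39 ± 0.09), Irf5 (-0.56 ± 0.11) and Irf8 (-0.64 ± 0.16) fell. Of 4 genes of Isg15 conjugation, 3 fell (median -0.91). Uba7, its activating enzyme, fell by 1.16 ± 0.17 and Ube2l6, its conjugating enzyme, by 0.67 ± 0.15. Usp18, which removes Isg15 and damps receptor signalling, fell by 1.52 ± 0.44. The fourth gene of that list, Herc6, a ligase, differed by 0.18 ± 0.20.

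Of 45 other antiviral effectors, 21 fell, 4 rose and 20 were not called at 4 weeks (median -0.35). Parp9 fell by 1.06 ± 0.15, Dtx3l by 0.82 ± 0.13, Bst2, the tether that holds budding virus at the cell surface, by 0.86 ± 0.18 and Adar, an editor of double-stranded RNA, by 0.51 ± 0.12. Ifit2 was thus not alone in rising, and 13.4% of all genes were called higher at 4 weeks. The 4 that rose were Cmpk2, a mitochondrial nucleotide kinase (1.24 ± 0.23), Tor3a (0.98 ± 0.31), Ifi27l2b (0.68 ± 0.21) and Isg20, an RNA exonuclease (0.39 ± 0.14). The last 3 were singled out after their values were seen. Their rise was not seen in each 4-week run of animal numbers. Animal 59, the only 5% animal of its run, stood at 5.73 for Tor3a and 9.71 for Ifi27l2b. The 20% animals of that run ran from 5.56 to 5.94 and from 9.27 to 9.76. For Isg20 the 20% animals of the other run, 29 and 30, stood at 7.28 and 7.18. The 5% animals there ran from 7.04 to 7.56. In the remaining run of each gene the 5% animals lay wholly higher. Cmpk2 ran from 7.78 to 8.78 on 5% protein and from 6.77 to 7.71 on 20% protein at 4 weeks, with no overlap. Rsad2, which lies next to Cmpk2, differed by 0.10 ± 0.30 and was not called.

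Of 23 interferon gamma targets and antigen presentation genes, 9 fell and 1 rose (median -0.39). The immunoproteasome subunit Psmb8 fell by 1.58 ± 0.23 and B2m, the light chain of class I molecules, by 0.32 ± 0.06, while Wars1, a tRNA synthetase induced by interferon gamma, rose by 0.68 ± 0.18. Cxcl10 differed by 0.23 ± 0.34. Among 7 negative regulators, Pias1 (-0.28 ± 0.08) and Ptpn6 (-0.27 ± 0.08) fell. Socs1 (-0.25 ± 0.15) and Socs3 (0.05 ± 0.17) were not called.

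**Figure D3:**
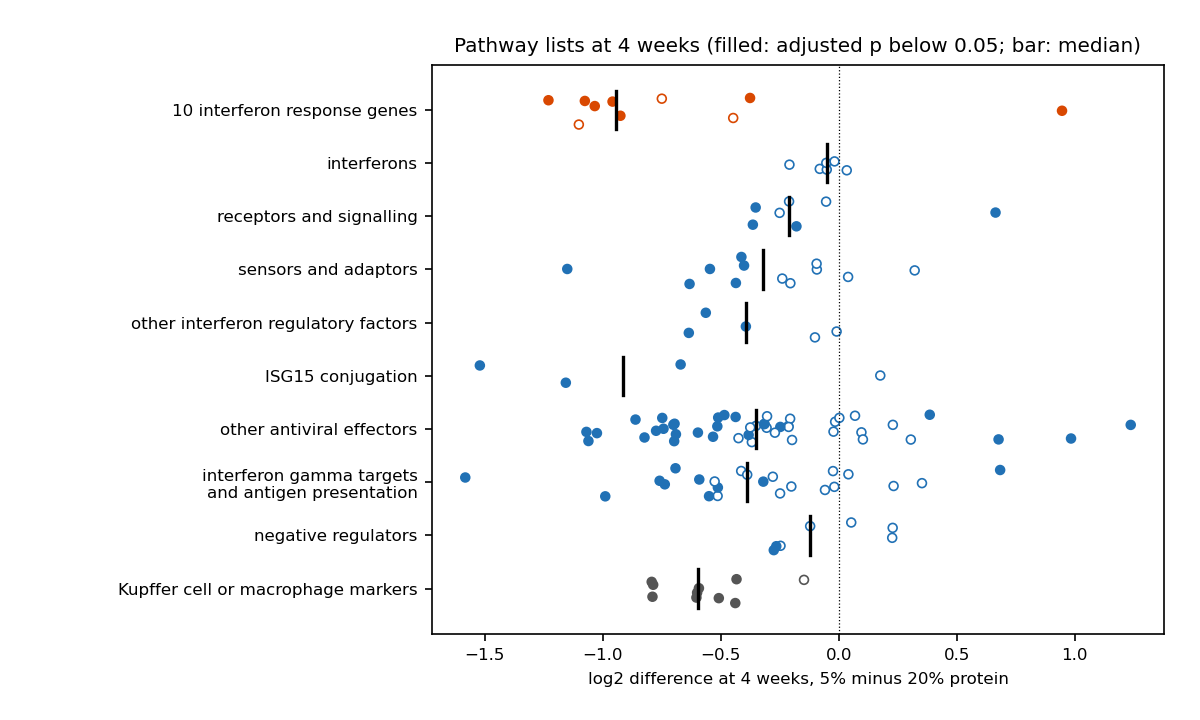
Log2 difference at 4 weeks (horizontal axis, 5% minus 20% protein) of the 10 genes, of each list of other pathway genes and of macrophage markers, 1 point per gene, filled where the adjusted p was below 0.05, with the list's median as a bar. The 10 genes lie to the left except Ifit2 at 0.95, and the 6 interferon genes, all open, lie near 0.

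Every run of animal numbers held a single time, so time cannot be told apart from run or from age, which the labels do not give. The same holds for the change of the diet effect between the times. Across time, the groups on 20% protein did not part. None of the 10 was called between 4 weeks and 1 week on that diet, where 2.52% of all genes were called, and none had an unadjusted p below 0.05 by limma. On 5% protein 5 of the 9 were lower at 4 weeks than at 1 week, where 4.13% of all genes were called lower: Isg15 (-1.14 ± 0.32), Mx1 (-1.08 ± 0.31), Irf7 (-0.99 ± 0.28), Stat2 (-0.57 ± 0.13) and Ifih1 (-0.32 ± 0.09). Ifit2 was higher by 0.51 ± 0.14 (limma adjusted p = 0.0277), where 4.15% of all genes were called higher. The 10 macrophage markers described below had 7 lower on that diet over the same time, with a median of -0.60, and their part in these differences was not tested. The count of 6 was 3 with run as a covariate, where Ifih1, Irf7 and Mx1 lost their calls, 2 without 23, 32, 54 or 76 and 3 without 31 or 50. Stat2 stayed called without each of these animals, and Ifit2 lost its call without 22, 49 or 59. Ifit2 also lost it with only the 2 groups compared in the fit (limma adjusted p = 0.0659).

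The group on 5% protein for 4 weeks therefore had the lowest mean of the 4 groups for all 9 genes. Neighbouring means among the other 3 groups were not called different where they were compared. For Ifit2 the order from low to high was 20% at 4 weeks (7.38 ± 0.20 SD), 20% at 1 week (7.49 ± 0.19 SD), 5% at 1 week (7.81 ± 0.21 SD) and 5% at 4 weeks (8.32 ± 0.39 SD). Of the neighbours in this order only the last pair was called different. The change of the diet effect between the times was tested directly. It was called for Stat2 alone (-0.72 ± 0.18, limma adjusted p = 0.0238), where 5.75% of all genes were called in either direction. For Ifit2 it was 0.63 ± 0.20 (limma adjusted p = 0.0655). Thus a diet effect called at 4 weeks and not at 1 week was not shown to differ between the times for the other genes.

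The 9 genes varied together from animal to animal. Over the 24 deviations from the group means, the 36 pairs among them had a median Pearson r of 0.73 (0.13 to 0.95) and a median Spearman rho of 0.65. Ifit2 correlated with each of the 9 at a median r of 0.37 (0.25 to 0.56) and a median rho of 0.43, which is also positive. So within a group, an animal high for the 9 was if anything also high for Ifit2, while between the diets at 4 weeks Ifit2 went the opposite way. The points share arrays and normalization, and no p is given.

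**Figure D4:**
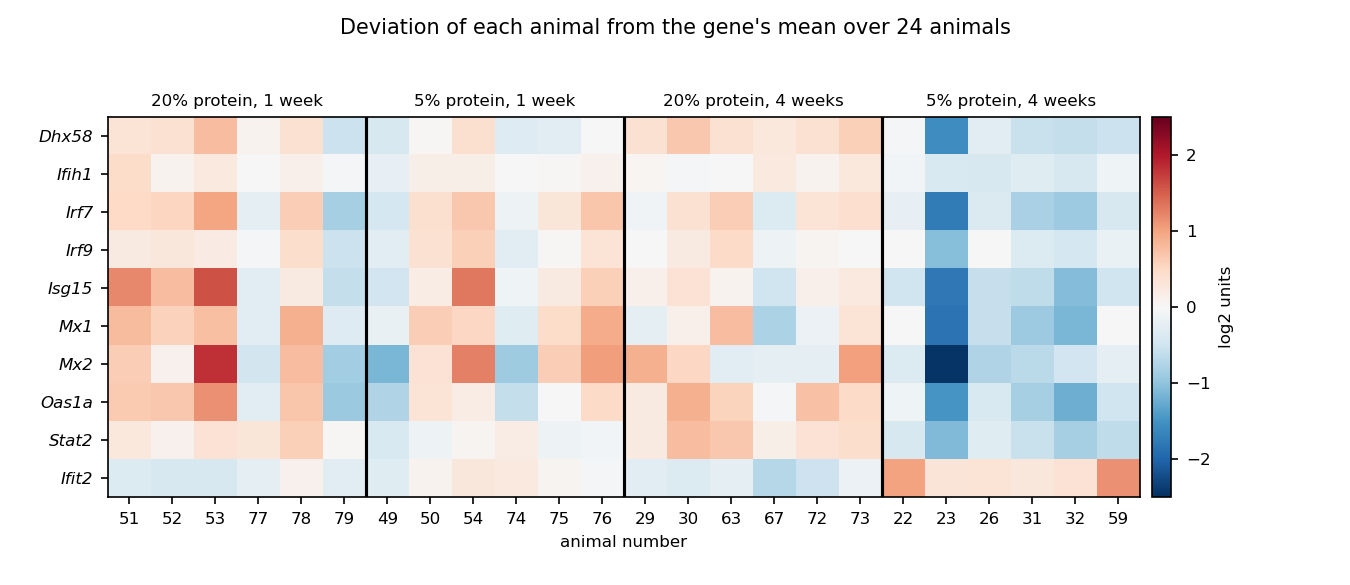
Deviation of each animal's log2 intensity (colour) from the gene's mean over 24 animals, with genes as rows and animals in columns by group. Animal 23 is lowest of its group in 8 of the 9 genes other than Ifit2 and animal 79 in 9 of 9, while the Ifit2 row has its highest values in animals 22 and 59.

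Single animals set much of this spread. On 5% protein for 4 weeks, animal 23 was the lowest in 8 of the 9 genes. Animal 79 (20% protein, 1 week) was lowest in all 9, and animals 49 (5% protein, 1 week) and 67 (20% protein, 4 weeks) in 7 each. Without animal 23, 5 of the 9 were called lower at 4 weeks, with a median of -0.76, and Ifit2 was 1.00 higher.

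The genes whose pattern over all 24 animals was most like the mean of the 9, each scaled to its own mean and SD, were Usp18 (Pearson r = 0.94), Oas1i (0.91), Parp12 (0.90), Ifi44 (0.89), Oas1b (0.89), Parp9 (0.88), Rtp4 (0.87) and Adar (0.87). All 8 stand in the lists of pathway genes. Since the likeness was taken over all 4 groups, their lower values on 5% protein at 4 weeks follow in part from how they were chosen. Oas1i and Oas1b are close copies of Oas1a, and their probes may share signal with it. For Ifit2 the nearest were Vldlr, a lipoprotein receptor (0.88), Adgrg2 (0.84), Cnppd1 (0.84), Enc1 (0.83) and Flvcr2 (0.82), of which none is in those lists. These were chosen in the same way, and at 4 weeks Vldlr differed by 2.41 ± 0.19 and Cnppd1 by 0.94 ± 0.12. Once group means were taken out the r of Vldlr with Ifit2 was 0.49 and those of the other 4 ran from 0.31 to 0.40, while the r of Usp18 with the 9 was 0.94.

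The animal numbers fall into 4 runs, defined here from the numbers in the titles: 22 to 32 and 59 to 73 at 4 weeks, and 49 to 54 and 74 to 79 at 1 week. The labels do not say what a run is. In the first run (5 animals on 5% and 2 on 20% protein), Dhx58, Isg15, Oas1a and Stat2 fell, the 9 had a median of -1.12 and Ifit2 rose by 0.76 ± 0.18 (limma adjusted p = 0.00665). In that run 7.54% of all genes were called lower and 8.32% higher. In the third run, with 1 animal on 5% and 4 on 20% protein, the median was -0.49. There Stat2 fell by 1.04 ± 0.27 (limma adjusted p = 0.0142) and Ifit2 rose by 1.55 ± 0.24 (adjusted p = 0.000353), the spread of the lone animal being taken from the others. In the third run 5.49% of all genes were called lower and 6.83% higher. At 1 week the median of the 9 was -0.46 in the second run and 0.15 in the fourth, with none called in either by limma. An unadjusted p below 0.05 went to Isg15, Oas1a and Ifit2 in the second run and to none of the 10 in the fourth, and no difference between these runs was called. The 20% animals of those runs differed: Isg15 was lower in the fourth run by 1.40 ± 0.37 (limma adjusted p = 0.0168), where 6.53% of all genes were called lower, and the median of the 9 was -0.61. Among the other pathway genes, 10 of 45 antiviral effectors were lower within the first run and 4 within the third, and 2 and 3 of the 23 interferon gamma and antigen presentation genes. The titles also carry a letter that reads as a plate row. At 1 week no letter held both diets, so letter and diet cannot be told apart there.

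The liver label was borne out by hepatocyte markers, whose summed intensity (7 genes) lay between 57172 and 73762 in all 24 animals. At 4 weeks 3 of these 7 were lower on 5% protein. Some markers of other cells differed with the diet at 4 weeks, where 12.4% of all genes were called lower and 13.4% higher. Of 10 macrophage markers 9 fell at 4 weeks (median -0.60), Clec4f, a Kupffer cell lectin, by 0.79 ± 0.14, and Marco differed by -0.15 ± 0.34. The summed macrophage intensity was 3992 to 4919 on 5% and 5859 to 9718 on 20% protein at 4 weeks, without overlap. At 1 week it was 5487 to 8318 on 5% and 6578 to 9370 on 20% protein, and 0 of 10 were called by limma, with an unadjusted p below 0.05 for Vsig4 and C1qb. Endothelial markers (1 of 4 lower; sums 2391 to 2860 against 2891 to 3445), stellate cell markers (1 of 5; 1341 to 1558 against 1775 to 2795) and T cell markers (2 of 7; 565 to 719 against 722 to 1162) also did not overlap in their sums at 4 weeks. Dendritic cell markers had 2 of 7 lower, Flt3 and Xcr1, with sums of 180 to 214 against 211 to 303. Erythroid markers had 3 of 4 lower at 1 week (sums 193 to 928 against 707 to 2296) and 2 of 4 at 4 weeks (146 to 697 against 306 to 1527). Neutrophil (7), NK cell (5) and B cell (3) markers had 0 called by limma at either time, with an unadjusted p below 0.05 for Klrd1 at 1 week and for Ncr1, Prf1 and Ms4a1 at 4 weeks. Some markers lay among the 33.3% of genes with the lowest mean intensity. They were 5 of 7 neutrophil, 4 of 7 T cell, 2 of 7 dendritic cell and 1 of 3 B cell markers. Of 3 bile duct markers Epcam rose at 4 weeks. No marker is at 0 in these values, which carry no detection call. In bulk liver, fewer cells of a type and less RNA per cell cannot be told apart.

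The part of these cell types in the fall of the interferon genes was not tested. Among the 4 animals that were lowest in most of the 9 genes, animal 49 had the lowest macrophage sum of its group, 5487, and animal 67 the second lowest, 6014. Animal 79 stood at 7180 in a group from 6578 to 9370, and animal 23 had the highest sum of its group, 4919. Animals 53 (20% protein, 1 week) and 22 (5% protein, 4 weeks), each highest in 5 of the 9 genes, had sums of 8952 and 4693.5. Animals 54 (5% protein, 1 week) and 30 (20% protein, 4 weeks) were each highest in 4 of the 9. Their sums were 6456 and 5859, and that of animal 30 was the lowest of its group. Animals 78 (20% protein, 1 week), 76 (5% protein, 1 week) and 63 (20% protein, 4 weeks) were each highest in 3 of the 9 genes. Each had the highest sum of its group, 9370, 8318 and 9718. Within the first run 2 of 10 macrophage markers fell (median -0.38), and within the third run 5 of 10 (median -0.71), where the 9 genes had -1.12 and -0.49. At 1 week the macrophage medians were -0.36 in the second run and -0.05 in the fourth, where the 9 genes had -0.46 and 0.15. Between the 20% animals of the fourth and second runs they were 0.10 for the macrophage markers and -0.61 for the 9 genes.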

How the data were processed

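Liver RNA of 24 rats was measured on 1-colour Affymetrix whole-transcript arrays. The deposited values are intensity per probe set on the unlogged scale after RMA (background correction, quantile normalization, probe summary), per the labels and the submitters' processing notes, which give no version. Other steps are not given in the sources used here. RMA can compress differences of weak probe sets and gives no detection limit. Array medians were 42.4 to 45.5, and arrays of a group correlated at 0.984 to 0.995. For arrays, their number limits the precision.

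Log2 was taken. Of 29214 probe sets, 18644 had 1 symbol, 962 several and 9608 none. Only those with 1 were used. Group means were fitted over 17245 genes with limma 3.58.1 (lmFit, eBayes; R 4.3.3, tables read by data.table, version 1.17.8) and Benjamini-Hochberg adjustment, two-sided. All 24 animals share 1 estimate of spread (20 residual degrees of freedom, prior 3.95), and the code was tested on simulated data. Animals are taken as separate from the numbers in the titles. Genes named beside the 10 were a fixed pathway set, up to 3 called genes of smallest p per list and diet comparison (otherwise the 1 of smallest p), and the genes of nearest pattern. The 10 genes and the lists were chosen with earlier results of these data known. Alternatives were normalization, an offset of 16, probe set choice, a filter leaving out the lowest 33.3% of genes, eBayes options, array weights, the groups in the fit, title position, run, and each animal left out. The list counts under these alternatives were added after seeing the data.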

Additional observations from a re-analysis of the deposited data

Results flagged for a closer look

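Of 40 sets of 6 animals (10 genes in 4 groups), 4 had an animal whose gap to its nearest neighbour was large against the range of its set, and chance gives about 1 in 20. Dhx58 in animal 23 (5% protein, 4 weeks) was 5.31 with the next at 6.27, a gap of 0.632 of the range. Mx2 in the same animal was 6.03 with the next at 7.73, a gap of 0.76. Isg15 in animal 67 (20% protein, 4 weeks) was 6.77 with the next at 7.34, a gap of 0.663. Ifit2 in animal 78 (20% protein, 1 week) was 7.85 with the next at 7.51, a gap of 0.677. The diet effect on Stat2 differed between the times by the test of that difference, -0.72 on the log2 scale.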

How the results depend on the processing

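No called value of the 10 genes, of the fixed pathway set or of the genes taken by smallest p per list changed direction under any alternative run. Other genes named above, among them Tor3a, Ifi27l2b and Isg20, were not followed gene by gene. At 1 week none of the 10 was called under any of the alternatives. At 4 weeks 7 were called, and 5 to 8 under the alternatives except in the third run alone, where 2 were (1 animal on 5% protein). Leaving out 1 animal gave 6 to 8. Stat2 and Ifit2 kept their calls at 4 weeks in all 37. The change of the diet effect with time had 1 gene called, 2 with array weights and 1 to 2 when an animal was left out, the added gene being Ifit2. Time on 5% protein had 6 called, 3 with run as a covariate and 2 to 6 when an animal was left out. With only the 2 groups compared 5 were called, as Ifit2 lost its call. With run as a covariate Irf7 (adjusted p = 0.0635) and Isg15 (0.0556) lost their calls at 4 weeks, and Isg15 also with the offset (0.0535). Irf9 was called without 26 (0.0482) or 79 (0.0498), Mx1 without 22 (0.0368), 59 (0.0381) or 67 (0.0345), and Mx2 with only the groups compared (0.0348). The causes were not tested. Within runs the antiviral effectors called lower at 4 weeks numbered 10 in the first run and 4 in the third in place of 21, and the interferon gamma list 2 and 3 in place of 9 (3 with run as a covariate). In the third run the sensors had 3 in place of 6 and Isg15 conjugation 1 in place of 3. No paired analysis was possible because each animal number occurs in a single group. The test on only the groups compared was not run for the change with time, and single runs give no time comparison. At 1 week the lists' counts of lower genes, 2 sensors, 3 effectors and 1 of the interferon gamma list, ranged over 1 to 3, 1 to 5 and 0 to 1. The counts of 0 at 1 week for Isg15 conjugation and for macrophage markers ranged over 0 to 2 and 0 to 1. RMA values carry no background measure, so no limit from signal is given.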
